A study of Mus musculus with 4 samples.

Results

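Cathepsins are the proteases of endosomes and lysosomes, and the 10 cathepsin genes Ctsa, Ctsb, Ctsc, Ctsd, Ctse, Ctsh, Ctsk, Ctsl, Ctss and Ctsz were followed here by symbol, out of 24441 gene symbols measured by RNA sequencing. The RNA came from Langerhans cells, which sample antigen in the outer layer of the skin, sorted from mice at 4 weeks of age. One group was wild type (WT). The other, Tfam cKO, carried CD11c-Cre with floxed alleles of Tfam (CD11cCreTfamfl/fl), so that recombination is directed to cells that express CD11c and is not limited to Langerhans cells. Each group had 2 libraries, numbered 1 and 2, and the labels leave unstated which mice each came from and whether WT mice carried Cre or floxed alleles. P-values therefore measure only the spread between these libraries. The 2 libraries of each group differed in Y-linked transcripts, as given below. The spread thus holds a difference in the sex of the mice and is not technical alone.

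Cathepsins are made as inactive precursors, sorted to the lysosome largely by mannose 6-phosphate receptors, and activated at acid pH. They fall into cysteine, aspartic and serine proteases by the residue that attacks the peptide bond. In antigen-presenting cells they break down internalised protein and trim the invariant chain, the chaperone that occupies the groove of MHC class II molecules until a peptide is loaded. Cystatins, stefins and some serpins block cysteine cathepsins.

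The tables gave 1 value for each cathepsin in FPKM, fragments scaled to transcript length and to the mapped fragments of the library, which allows levels of different genes to be compared. All 10 genes had 1 row each and no rows for transcripts. The balance between transcript isoforms was therefore not analysed here, and "balance" below is that between cathepsin genes. The GENCODE M21 annotation lists between 1 and 5 protein-coding transcripts for them, 1 for Ctsb, Ctsk and Ctsz and 5 for Ctsa and Ctsl. For testing, the average over all 4 libraries had to reach 1 FPKM, which 10910 genes and 8 of the 10 cathepsins met. Where a pair of values is given for a group, library 1 comes before library 2.

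The 4 libraries carried markers of Langerhans cells and of other epidermal cells. All 7 Langerhans cell markers were tested, with a summed level of 12088 to 12566 FPKM in WT and 11336 to 14643 in Tfam cKO. Most of that sum is Cd74, the gene of the invariant chain, at 9289 and 10360 FPKM for WT against 12340 and 9264 for Tfam cKO. Cd207 was at 2098 and 1495 FPKM for WT against 1528 and 1374 for Tfam cKO, with overlapping groups. Keratinocyte markers, 12 of 12 tested, summed to 13853 and 9474 FPKM in WT and to 13959 and 12445 in Tfam cKO. T cell markers, 7 tested of 8 listed, summed to 257 to 281 FPKM in WT and 180 to 259 in Tfam cKO. Of macrophage and monocyte markers, 1 of 8 was tested, Adgre1, which Langerhans cells express too, and Cd163 and Fcgr1 were listed at 0 in every library; their sum was 81.3 to 92.3 FPKM in WT and 78.1 to 98.6 in Tfam cKO. None of 6 fibroblast markers was tested, with summed levels from 0.278 to 1.07 FPKM. Melanocyte markers, 1 of 5 tested, summed to 1.51 to 5.40 FPKM. Of 7 mast cell and neutrophil markers 1 was tested, and the mast cell proteases Cpa3, Mcpt4, Tpsb2 and Cma1 and the neutrophil elastase gene Elane were listed at 0 in every library. The Y-linked gene Ddx3y was listed at 0 in both libraries numbered 1, at 28.2 FPKM for WT 2 and 9.34 FPKM for Tfam cKO 2. Y-linked transcripts thus separate the number 1 from the number 2 libraries. Xist, an RNA of female cells, was at 64.6 and 5.38 FPKM for WT against 39.0 and 45.6 for Tfam cKO. Tfam cKO 2 thus held both Xist and Y-linked RNA, and the contrast in sex between the numbers was not the same in the 2 groups. Tfam itself was at 3.17 and 1.61 FPKM for WT against 1.65 and 1.53 for Tfam cKO, so that WT 2 was close to the Tfam cKO libraries. Reads from outside the deleted part of the allele can enter such a value, so it does not check the deletion, groups are named by their labels throughout, and the leading values are also given without WT 2. In RNA from sorted cells, fewer cells of a type and less RNA per cell cannot be told apart.

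Ctss was the most abundant cathepsin transcript and Ctsk and Ctse were close to absent. Ctss encodes cathepsin S, the cysteine endopeptidase that completes invariant chain breakdown in antigen-presenting cells, and was at 306 and 284 FPKM for WT against 304 and 259 for Tfam cKO. Its mean of 288 FPKM stood above that of Ctsz, at 135 FPKM, with ranges that did not overlap. Ctsb and Ctsh followed at means of 99.97 and 99.6 FPKM, with overlapping ranges. Ctsh was the higher in both WT libraries, at 96.9 and 89.0 FPKM against 88.8 and 81.6 for Ctsb. Ctsb was the higher in both Tfam cKO libraries, at 121 and 109 FPKM against 119 and 93.5 for Ctsh. Their order thus differed between the groups, which was not tested. The ranges of Ctsz and Ctsb overlapped over the libraries as well, but Ctsz was above Ctsb within all 4. Ctsd came next at 71.2 FPKM, then Ctsa at 28.6 and Ctsc at 24.0 with overlapping ranges, and Ctsl at 16.4 FPKM. The 8 genes lay above at least 68.9% of the tested genes in each library, and Ctss above at least 98.2%.

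**Figure D1:**
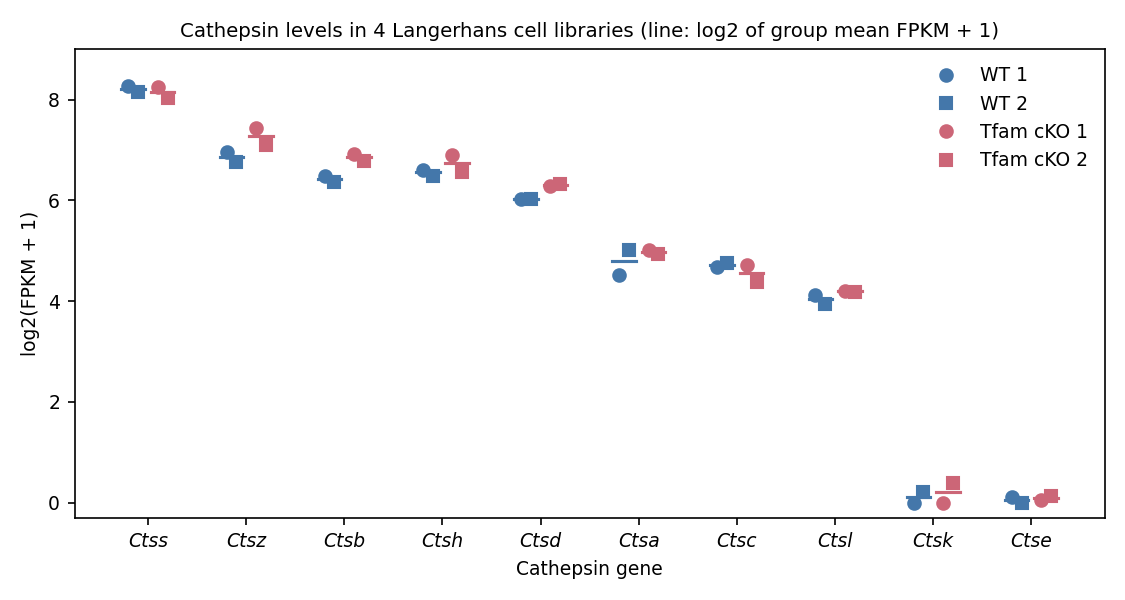
Level of each cathepsin gene, as log2(FPKM + 1), in 2 WT (blue) and 2 Tfam cKO (red) libraries, with circles for libraries numbered 1, squares for those numbered 2 and a line at the log2 of each group's mean FPKM plus 1. Ctss is highest in every library, Ctsk and Ctse lie near 0, and for Ctsz, Ctsb, Ctsd and Ctsl both red points lie above both blue points.

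Ctsk encodes cathepsin K, the collagen-degrading protease of osteoclasts. It was listed at 0 in WT 1 and Tfam cKO 1, at 0.161 FPKM for WT 2 and 0.32 FPKM for Tfam cKO 2. The width of the Cufflinks interval places 4 and 9 fragments behind the latter values. Ctse, for the endosomal aspartic protease cathepsin E, was at 0.0784 and 0 FPKM for WT against 0.0444 and 0.101 for Tfam cKO, on at most 4 fragments. Neither gene met the level for testing, and no fold change is given for them. In the files Ctsk ends 17398 bases before Ctss begins on chromosome 3, so Ctsk and Ctss, the lowest and the highest of the 4 cysteine endopeptidases followed here, are neighbours in the genome. Among 14 further gene models with Cts symbols, 11 were listed at 0 in all libraries, including the placental cathepsins Ctsj, Ctsm, Ctsq and Ctsr and the granulocyte protease gene Ctsg. The other 3 were Ctsf, Ctso and Ctsw.

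Positions differ between the files and the named build. The files place Ctss at chromosome 3, 95330708 to 95360327, and Ctsb at chromosome 14, 63741299 to 63764760, whereas GENCODE M21 on GRCm38 has them at 95526786 to 95556403 and at 63122462 to 63145923. For 0 of the 10 genes did the file position overlap the GENCODE gene, and Ctsd, at 149561821 to 149573775 of chromosome 7 in the files, lies beyond the last GENCODE gene of that chromosome, which ends at 145324086. The build of the file coordinates is therefore unresolved. Sequences below carry GRCm38.p6 coordinates and were matched by symbol.

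RefSeq windows of 250 bases before to 50 after a transcript start were at hand for 7 of the 10 genes, in 8 windows, namely Ctsa, Ctsc, Ctsd, Ctsk, Ctsl, Ctss and Ctsz. They were searched on both strands for CACGTG, the core of the element that the lysosomal transcription factors TFEB, TFE3 and MITF bind, and for GAAA followed after any 2 bases by GAAA, a core of interferon-response elements read by IRF factors. The motifs share no overlap in these windows. CACGTG occurred in windows of Ctsa, Ctsd and Ctsl, and in 7.15% of all 32851 windows. The interferon-type motif occurred in that of Ctss, and in 3.44% of all windows. The stretches are shown because they hold every match found among the cathepsins, that of Ctss, the gene of highest level, among them. Capitals mark the motif.
Ctsd, 245 bases before the start, chr7:142388048-142388077, minus strand: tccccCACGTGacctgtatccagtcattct
Ctsd, 98 bases before the start, chr7:142387908-142387937, minus strand: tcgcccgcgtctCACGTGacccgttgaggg
Ctsa, 12 bases before and 5 after the start, chr2:164833757-164833786, plus strand: ctgtCACGTGatgcagatgctCACGTGacc
Ctsl, 236 bases before the start, chr13:64370739-64370768, minus strand: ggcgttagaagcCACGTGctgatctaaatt
Ctss, 250 bases before the start with the motif 21 bases from it, chr3:95526536-95526785, plus strand: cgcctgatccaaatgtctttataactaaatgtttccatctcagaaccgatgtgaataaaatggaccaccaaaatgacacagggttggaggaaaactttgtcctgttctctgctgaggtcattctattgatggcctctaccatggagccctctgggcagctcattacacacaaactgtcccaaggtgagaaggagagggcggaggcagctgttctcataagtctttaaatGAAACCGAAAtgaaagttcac
A match in these letters is a description of the window and not a binding site. The Ctsa, Ctsl and second Ctsd stretches lie inside the gene as GENCODE M21 draws it, whose outermost start is further upstream.

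Of the 8 tested cathepsins, 0 passed the test between Tfam cKO and WT in either direction (limma, Benjamini-Hochberg adjusted over all genes). Over all 10910 tested genes, 0.0183% passed as higher and 0% as lower. At an unadjusted limma p below 0.05 there was 1 cathepsin, Ctsb, higher in Tfam cKO, and 0 lower, beside 5.01% and 1.19% of all tested genes. Both Tfam cKO libraries lay above both WT libraries for 4 of the 8, Ctsb, Ctsd, Ctsl and Ctsz, and 0 lay below. The same order held for 25.4% (higher) and 9.75% (lower) of all tested genes. The median log2 fold change was 0.19 over the 8 cathepsins and 0.07 over all tested genes. Fold changes are on the log2(FPKM + 1) scale. Without WT 2, the largest log2 fold change was that of Ctsa, at 0.46. Those of Ctsb, Ctsz and Ctsd were 0.36, 0.31 and 0.28. Ctsh was at 0.12, Ctsl at 0.07, Ctss at −0.12 and Ctsc at −0.13.

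The lean towards higher values in Tfam cKO depended on the scaling. The FPKM of a library summed to 369761 and 338783 for WT against 395707 and 375823 for Tfam cKO, and rescaling to equal totals moved the median of all genes by −0.11. After it the cathepsin median was 0.07, against −0.04 for all genes, and after quantile normalization it was 0.08, against −0.01. The groups then did not overlap for 3 cathepsins higher, Ctsb, Ctsd and Ctsz, and for 2 lower, Ctsc and Ctss, after rescaling, beside 14.3% and 19.8% of all tested genes. After quantile normalization the numbers were 4 and 2, beside 16.3% and 17.3%.

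Among the cysteine endopeptidases, Ctsb and Ctsl were higher in both Tfam cKO libraries, without passing the test, and Ctss overlapped between the groups. Ctsb encodes cathepsin B, an abundant lysosomal protease that also clips dipeptides from the end of a chain. It was at 88.8 and 81.6 FPKM for WT against 121 and 109 for Tfam cKO, and the groups did not overlap. The means were 85.2 ± 5.06 FPKM (SD, n = 2) for WT and 115 ± 8.71 FPKM (SD, n = 2) for Tfam cKO, and the log2 fold change was 0.42 with an SE of 0.18 (adjusted p = 0.80, limma). The upper Cufflinks 95% bounds in WT reached 93.2 FPKM and the lower bounds in Tfam cKO 104 FPKM, which covers counting error only. The difference was 0.44 in the number 1 libraries and 0.41 in the number 2 libraries. In the files the end of Ctsb overlaps Fdft1 over 773 bases, and Fdft1 stood at 8.89 to 10.6 FPKM in WT and 10.8 to 13.1 FPKM in Tfam cKO. Whether counting used strand is not given in the sources used here, so reads of the overlap cannot be told apart.

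Ctss differed little between the groups, with overlapping values, means of 295 ± 15.9 (WT) and 282 ± 31.8 FPKM (Tfam cKO; SD, n = 2 each) and a log2 fold change of −0.07 with an SE of 0.20 (adjusted p = 0.983, limma). Its difference was −0.01 in the number 1 libraries and −0.13 in the number 2 libraries. Ctsl, for cathepsin L, which degrades the invariant chain in thymic epithelium and takes part in keratinocyte differentiation, was at 16.5 and 14.4 FPKM for WT against 17.5 and 17.2 for Tfam cKO. The groups did not overlap as deposited, but did after rescaling to equal totals. The log2 fold change was 0.16 with an SE of 0.16 (adjusted p = 0.931, limma).

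Of the cysteine exopeptidases, Ctsz had the higher values in Tfam cKO and Ctsc and Ctsh overlapped. Ctsz, for the carboxypeptidase cathepsin Z (also called X), was at 124 and 107 FPKM for WT against 172 and 136 for Tfam cKO. The lowest Tfam cKO library was above the highest WT library, while their Cufflinks intervals met, with a WT upper bound of 131 and a Tfam cKO lower bound of 129 FPKM. The log2 fold change was 0.41 with an SE of 0.20 (adjusted p = 0.846, limma), with 0.47 in the number 1 libraries and 0.34 in the number 2 libraries. Ctsh, for an aminopeptidase, was at 96.9 and 89.0 FPKM for WT against 119 and 93.5 for Tfam cKO (log2 fold change 0.18, SE 0.20). Tfam cKO 1 was the high library there. Ctsc encodes dipeptidyl peptidase I, which activates the serine proteases of granules, and was at 24.6 and 26.1 FPKM for WT against 25.4 and 19.7 for Tfam cKO. Tfam cKO 2 was the low library, and the log2 fold change of −0.17 (SE 0.18) was 0.04 in the number 1 libraries and −0.39 in the number 2 libraries.

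Ctsd had the smallest spread for its mean of the 8 tested cathepsins in both groups. It encodes cathepsin D, the main aspartic protease of lysosomes, and was at 64.2 FPKM in both WT libraries and at 77.5 and 78.9 FPKM in Tfam cKO. The Cufflinks bounds of the groups did not meet, with 67.5 FPKM as the highest in WT and 73.6 FPKM as the lowest in Tfam cKO, which was so for 2 of the 8 tested cathepsins, Ctsb and Ctsd. Of tested genes with 1 row in the tables, 4.81% had bounds apart as higher and 0.855% as lower. Bounds are narrower at higher levels, where the cathepsins lie. The log2 fold change was 0.28 with an SE of 0.17 (adjusted p = 0.879, limma), and 0.27 and 0.29 in the number 1 and number 2 libraries. Limma draws the variance of a gene towards that of genes of like level, so the SE is wider than the spread of these pairs alone. Ctsa, the serine carboxypeptidase that protects beta-galactosidase and neuraminidase 1 in a lysosomal complex, was at 21.9 and 31.6 FPKM for WT against 31.1 and 29.8 for Tfam cKO. WT 1 was the low library and the other 3 lay close together. Its log2 fold change of 0.21 with an SE of 0.20 (adjusted p = 0.931, limma) was 0.49 in the number 1 libraries and −0.08 in the number 2 libraries.

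**Figure D2:**
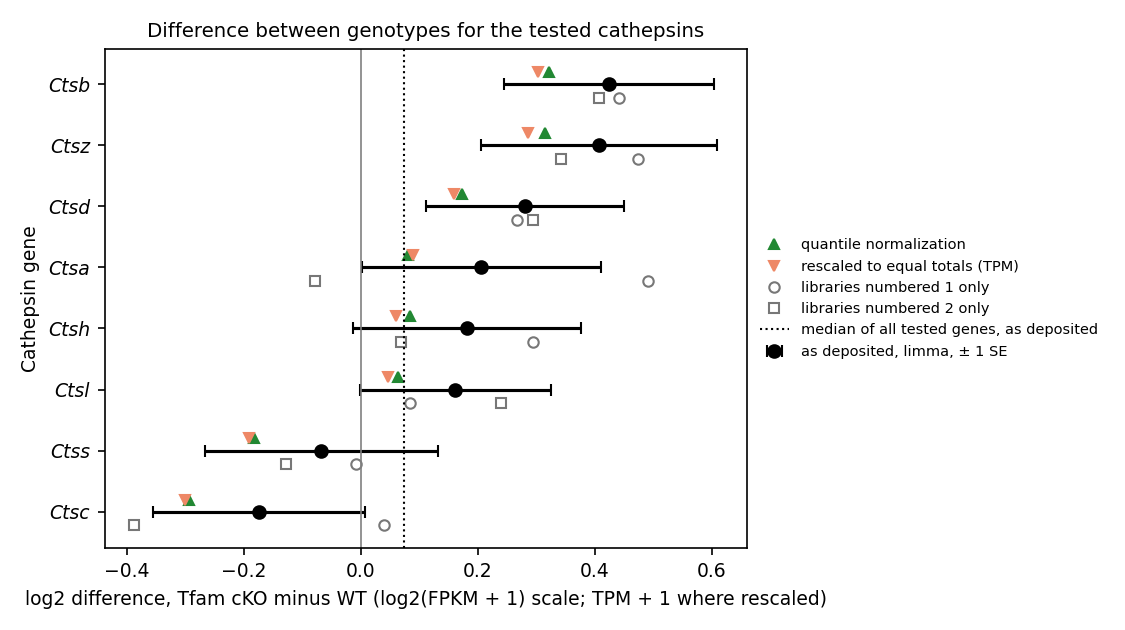
Log2 difference between Tfam cKO and WT for the 8 tested cathepsins, with filled circles and bars for the limma estimate ± 1 SE, triangles for both rescalings, open symbols for the difference within libraries of the same number and a dotted line at the median of all tested genes. Ctsb, Ctsz, Ctsd, Ctsh and Ctsl have every point above 0, and Ctss has every point below 0. The bars of Ctsh, Ctsl and Ctss reach across 0. Ctsc is below 0 as deposited and after both rescalings. For Ctsa and Ctsc the values of the libraries numbered 1 and 2 lie on opposite sides of 0.

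The 10 genes together were at 743 and 698 FPKM for WT against 868 and 744 for Tfam cKO, a log2 difference of 0.16, with Tfam cKO 2 barely above WT 1. That difference was 0.05 after quantile normalization and 0.03 after rescaling to equal totals, and it was 0.05 without Tfam cKO 1 and 0.27 without Tfam cKO 2. The exact two-sided permutation test gave p = 0.333, the smallest that 2 libraries against 2 allow. As a share of all FPKM they made up 0.201% and 0.206% for WT against 0.219% and 0.198% for Tfam cKO, with overlapping groups. Shares of the cathepsin sum, and ratios between cathepsins, are the same before and after rescaling to equal totals. Ctss took 41.2% and 40.6% of the cathepsin sum for WT against 35.1% and 34.9% for Tfam cKO. That is a mean difference of −5.94 percentage points, with an SD of 0.410 points in WT and 0.140 points in Tfam cKO (exact two-sided permutation p = 0.333, n = 2 each, the smallest possible). Without WT 2 the difference was −6.23 points.

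Ctsb and Ctsz took larger shares in Tfam cKO. Ctsb made up 12.0% and 11.7% of the sum for WT against 13.9% and 14.6% for Tfam cKO, and Ctsz 16.7% and 15.4% against 19.8% and 18.3%. The share of Ctsc was 3.32% and 3.74% for WT against 2.92% and 2.65% for Tfam cKO, also without overlap. The shares of Ctsa, Ctsd, Ctsh and Ctsl overlapped between the groups. By class, cysteine endopeptidases made up 55.4% and 54.4% for WT against 51.0% and 51.8% for Tfam cKO, and cysteine exopeptidases 33.0% and 31.9% against 36.5% and 33.5%. The shares of aspartic and of serine cathepsins overlapped.

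**Figure D3:**
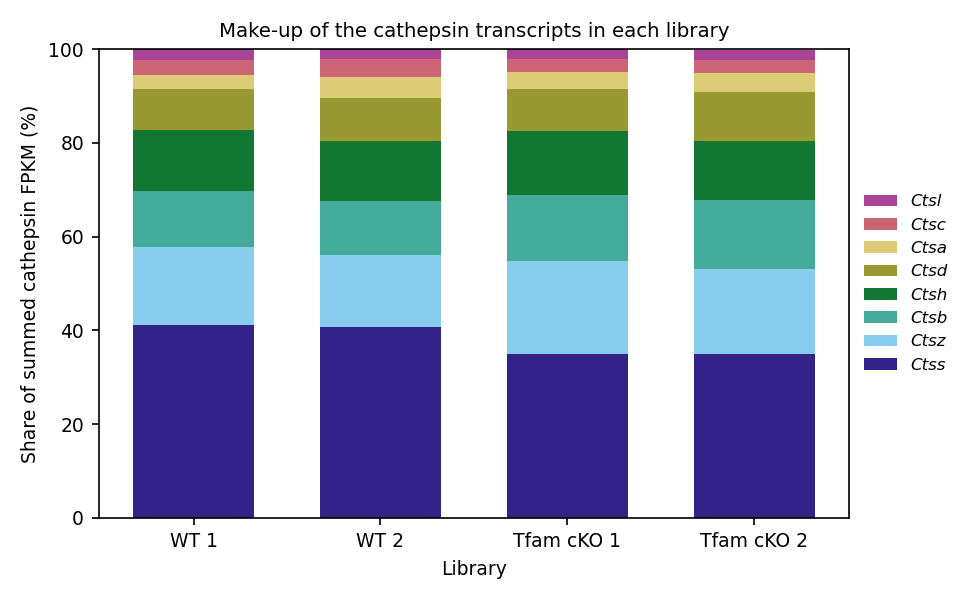
Share of each of the 8 tested cathepsins in the summed cathepsin FPKM, as stacked bars for 2 WT and 2 Tfam cKO libraries, where Ctsk and Ctse together are too small to be drawn. The Ctss block at the base reaches 41.2% and 40.6% for WT against 35.1% and 34.9% for Tfam cKO, and the Ctsz and Ctsb blocks above it are taller in Tfam cKO.

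Divided by Ctss, the levels of both Tfam cKO libraries exceeded those of both WT libraries for 5 of the other 7 tested cathepsins, and were lower for 0. Of all other tested genes, 33.2% had such a higher ratio to Ctss and 4.7% a lower one, so a higher ratio to Ctss was common among genes at large. The Ctsb to Ctss ratio was 0.290 and 0.288 for WT against 0.397 and 0.419 for Tfam cKO. That of Ctsz was 0.404 and 0.378 against 0.566 and 0.525. The ratio of Ctsd to Ctss was 0.210 and 0.226 for WT against 0.254 and 0.304 for Tfam cKO, and those of Ctsh and Ctsl also did not overlap. The ratios of Ctsa and Ctsc overlapped. Keratinocytes make cathepsins B, D and L as well, and 10 of the 12 keratinocyte markers had a positive log2 fold change, beside 65.2% of all tested genes. Their median was 0.20 beside the cathepsin median of 0.19. It was 0.11 after quantile normalization and 0.07 after rescaling, and ranged from 0.06 without WT 2 to 0.34 without WT 1. The cathepsin median was 0.20 without WT 2 and 0.25 without WT 1. Without Tfam cKO 1 the keratinocyte marker median was 0.25 beside 0.16 for the cathepsins. Without Tfam cKO 2 the 2 medians were 0.14 and 0.25. Among the keratinocyte markers the groups did not overlap for 3 higher, Dsp, Dsg3 and Sfn, and 1 lower, Krt1, beside the 25.4% and 9.75% of all genes. None passed the limma test, while Krt79 and Lor passed as higher with the replicate number as a block. Sfn was at 1593 and 1353 FPKM for WT against 2231 and 1833 for Tfam cKO. The marker sum given above, most of which is Krt5, Krt14 and Krt15, was lowest in WT 2 and alike in WT 1 and Tfam cKO 1. The 7 Langerhans cell markers had a median of −0.04, with 3 positive. That median was −0.20 after quantile normalization and −0.16 after rescaling, with 1 marker higher and 4 lower without overlap in each. Of all tested genes, 16.3% were higher and 17.3% lower after quantile normalization, and 14.3% and 19.8% after rescaling. As deposited, Ptprc, the pan-leukocyte gene, and Itgax, which encodes CD11c, were the markers lower without overlap, and Cdh1, the adhesion molecule E-cadherin, was higher. Ptprc was at 61.4 and 59.9 FPKM for WT against 50.4 and 52.4 for Tfam cKO, Itgax at 47.8 and 52.7 against 43.9 and 41.0 FPKM and Cdh1 at 193 and 167 against 239 and 220 FPKM. The part of cell make-up in the Ctss share and in the levels of Ctsb, Ctsd, Ctsl and Ctsz was not tested.

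Sequence sharing bears on how well the members can be told apart. Of all 50-base words in the protein-coding transcripts of a member, none occurred in a transcript of another of the 10 genes. Ctse, Ctsh, Ctsk, Ctss and Ctsz shared no such word with any other gene of GENCODE M21. Ctsb shared 15.4% of its words, all with Fdft1, and Ctsa 15.7%, mostly with the neighbours Pltp and Neurl2. Ctsd shared 35.7% with the gene model Gm49369 and Ctsl 27.2%, mostly with Gm47123 and Gm49230. The read length is not given in the sources used here.

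Of the enzymes that work beside the cathepsins, 6 of 7 listed were tested and 0 passed in either direction (limma adjusted over all genes). Lgmn, the asparaginyl endopeptidase legumain that starts invariant chain cleavage and matures several cathepsins, was at 25.0 and 20.5 FPKM for WT against 38.7 and 32.2 for Tfam cKO. Its groups did not overlap, and the log2 fold change was 0.62 with an SE of 0.19 (adjusted p = 0.598, limma), with 0.61 and 0.62 in the number 1 and number 2 libraries. Tpp1, for tripeptidyl peptidase 1, was at 18.3 and 18.1 FPKM against 21.3 and 21.7 FPKM, again without overlap. Napsa, an aspartic protease of the cathepsin D family, was at 98.1 and 119 FPKM for WT against 107 and 91.6 for Tfam cKO. Over the list the median log2 fold change was 0.01, and it turned to −0.06 and −0.09 after quantile normalization and rescaling and ranged from −0.04 to 0.10 with a library left out.

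The listed cathepsin inhibitors, among them cystatins, stefins and serpins, had a median log2 fold change of −0.27 over the 10 tested of 14 listed. Of these 0 passed (limma adjusted over all genes), and 1 library set the sign of the median. Without Tfam cKO 1 the median was 0.20, with 6 of 10 positive and 1 gene, Cst6, past the threshold as higher, and without Tfam cKO 2 it was −0.60, with 1, Stfa1, past it as lower. It was −0.31 after quantile normalization and −0.41 after rescaling. Cst3, which encodes cystatin C, exceeded every cathepsin, at 2964 and 2793 FPKM for WT against 2726 and 2443 for Tfam cKO, with groups that did not overlap and a log2 fold change of −0.16 (SE 0.24). Its ratio to Ctss was 9.69 and 9.85 for WT against 8.96 and 9.42 for Tfam cKO. Cstb, the intracellular stefin B, was at 260 and 180 FPKM for WT against 234 and 285 for Tfam cKO. Serpinb6a, a serpin, was at 82.7 and 61.6 FPKM against 87.9 and 88.8 FPKM. In the list 1 member was higher without overlap, Serpinb6a, and 2 were lower, Cst3 and Stfa3, beside the 25.4% and 9.75% of all genes.

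Sorting and regulatory genes showed the following. All 12 listed genes of mannose 6-phosphate tagging, sorting receptors, adaptors and retromer were tested and 0 passed (limma adjusted over all genes), with a median of 0.12 that was 0.02 after quantile normalization and 0.01 after rescaling. The median was −0.05 without WT 2, −0.04 without Tfam cKO 1 and 0.23 without Tfam cKO 2. M6pr, the small mannose 6-phosphate receptor, was at 87.3 and 72.8 FPKM for WT against 89.5 and 75.3 for Tfam cKO. Igf2r, the large one, was at 2.58 and 2.71 FPKM against 3.49 and 4.55 FPKM, without overlap (log2 fold change 0.46, SE 0.19, limma adjusted p = 0.783). Of the list, 2 genes were higher without overlap, Igf2r and Gnptg, and 1 was lower, Gnptab, beside the 25.4% and 9.75% of all genes. Gnptab was at 8.25 and 8.56 FPKM for WT against 7.28 and 7.86 for Tfam cKO. Of the transcription factor genes of the TFEB family, Tfeb was at 14.2 and 16.8 FPKM for WT against 19.5 and 19.6 for Tfam cKO. Tfe3 was at 17.4 and 15.9 against 21.6 and 19.0 FPKM, and Mitf at 2.23 and 2.18 against 2.89 and 2.80 FPKM. All 3 were higher in both Tfam cKO libraries as deposited and after quantile normalization, and 2 of 3 after rescaling, beside 25.4%, 16.3% and 14.3% of all tested genes. None passed the test, with log2 fold changes of 0.26 to 0.32, and Tfec was listed at 0 in every library.

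The class II antigen processing genes, on whose products cathepsins act, had a median of −0.09 over 10 tested, with 0 past the threshold (limma adjusted over all genes), and of −0.16 and −0.21 after quantile normalization and rescaling. It was 0.07 without Tfam cKO 2 and −0.25 without Tfam cKO 1. H2-Oa passed as lower without Tfam cKO 1 and with the replicate number as a block. Cd74, the invariant chain, was at 9289 and 10360 FPKM for WT against 12340 and 9264 for Tfam cKO, with overlapping groups. H2-Ab1 and H2-Aa, class II chains, overlapped too, at 6487 and 6705 against 7053 and 5387 FPKM and at 4435 and 4156 against 4579 and 3771 FPKM. Ifi30, the lysosomal thiol reductase, was the gene of the list that was higher without overlap, at 97.8 and 132 FPKM for WT against 144 and 148 for Tfam cKO. The 3 genes that were lower without overlap were H2-Oa and H2-Ob, whose products restrain peptide exchange on class II, and H2-DMb2, a chain of the exchange factor. These 1 higher and 3 lower of 10 stand beside 25.4% and 9.75% of all genes, and after rescaling 0 were higher and 5 lower, beside 14.3% and 19.8%. H2-Oa was at 15.4 and 22.6 FPKM against 12.5 and 7.51 FPKM (log2 fold change −0.88, SE 0.26, limma adjusted p = 0.581). H2-Ob was at 4.93 and 5.08 FPKM against 3.15 and 2.44 FPKM. Of the partners of Ctsa, Neu1 was at 7.76 and 11.2 FPKM for WT against 11.2 and 9.64 for Tfam cKO, and was thus low in WT 1 as Ctsa was. Glb1 was at 6.09 and 6.22 against 6.69 and 6.90 FPKM.

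**Figure D4:**
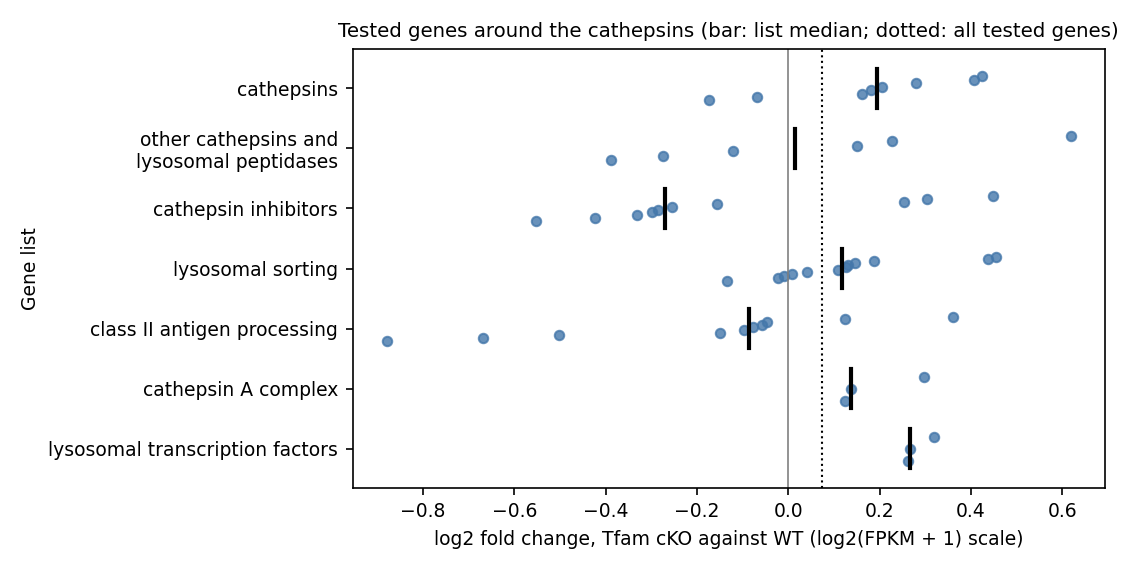
Log2 fold change of Tfam cKO against WT for each tested gene of the cathepsins and of 6 lists around them, with 1 point per gene, a bar at each list's median and a dotted line at the median of all tested genes. The cathepsin median is 0.19, that of the inhibitors −0.27 (0.20 without Tfam cKO 1) and that of the transcription factors 0.27, and no point belongs to a gene that passed the test.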

How the data were processed

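Messenger RNA of sorted Langerhans cells was sequenced from Trizol-extracted RNA in NEBNext Ultra libraries, 2 per group, per the labels' protocols. The authors deposited FPKM with a 95% interval in Cufflinks format, per the file headers. The submitters' processing notes list CASAVA, Cufflinks and mm10 with no version numbers. Not given in the sources used here: aligner, annotation and use of strand. FPKM of the 301 symbols with several rows were summed. Genes with a mean of at least 1 FPKM were tested as log2(FPKM + 1) in limma 3.58.1 (R 4.3.3) on genotype alone, with a mean trend of the variance and Benjamini-Hochberg adjustment over all genes at 0.05. The fit was tested on simulated data. Depth is unknown. Taken as 2 standard errors either way, the deposited interval gave between 672 and 2852 effective fragments behind each value of a tested cathepsin, for counting error only. Of each gene list, members past the threshold and up to 3 of highest level were to be named, and other genes were named after their values were seen. The members and lists were chosen with earlier results of these data known. Alternatives were 2 other scalings, other filters and pseudocounts, no trend, robust moderation, a block for the replicate number, the main locus only and leaving out each library.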

Additional observations from a re-analysis of the deposited data

How the results depend on the processing

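No cathepsin passed the test under any alternative run. The count over all tested genes, 2 as reported, was 0 without a filter, 1 with the filter at 5 FPKM, 1 with a pseudocount of 5 and 5 with robust moderation. With the replicate number as a block it was 184, of which 0 were cathepsins, where Ctsb had a limma adjusted p of 0.388 and Ctsz of 0.459. The numbers are not known to pair the mice, and deviations of same-numbered libraries correlated across genes with r = 0.26. With a library left out, 26 to 83 genes passed, on the assumption that the lone library varies like the other group. The count of cathepsins lower without overlap, 0 as reported, was 2 after quantile normalization, 2 after rescaling and from 0 to 2 with a library left out, where 19.1% to 32.1% of all genes were lower. That of cathepsins higher, 4 as reported, was 3 after rescaling and from 4 to 5 with a library left out, where 37.3% to 55.7% of all genes were higher. The cathepsin median of 0.194 was 0.082 after quantile normalization, 0.0741 after rescaling to equal totals and 0.16 to 0.25 with a library left out. Signs turned for Ctsa without WT 1 (−0.0487, in a range up to 0.46) and for Ctss without Tfam cKO 2 (0.0475, in a range down to −0.183), and kept for the other 6 tested cathepsins. The Ctss share difference of −5.94 points ranged from −6.23 to −5.65 with a library left out, an alternative added after seeing the data. Depth limits Ctsk and Ctse, with at most 9 fragments.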

Other observations

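Ctsw, Ctla2a, Ctla2b and Cst7, genes of the cathepsin system that cytotoxic T cells also express, were lowest in Tfam cKO 1. They were chosen after their values were seen. Ctsc, whose product activates granule proteases, was lowest in Tfam cKO 2 instead, at 19.7 FPKM. Ctsw, for the T and natural killer cell protease cathepsin W, was at 20.1 and 21.6 FPKM for WT 1 and 2, at 10.8 for Tfam cKO 1 and at 22.6 for Tfam cKO 2. Ctla2a, for a cysteine protease inhibitor of activated T cells, was at 80.5, 87.1, 44.8 and 98.0 FPKM in the same order of libraries. Ctla2b was at 26.0, 23.0, 13.9 and 23.2 FPKM, and Cst7, for cystatin F, at 14.1, 16.2, 8.53 and 17.3 FPKM. The highest library differed between these genes. Of the T cell markers, Cd3d, Cd3e, Cd3g, Cd247, Lck and Cd2 were lowest in Tfam cKO 1 as well, with Cd3g at 79.2, 85.1, 36.9 and 70.1 FPKM. Thy1 was not, at 65.6, 66.3, 67.0 and 66.8 FPKM, where Tfam cKO 1 was the highest. The Cd3g values of the groups did not overlap, with those of Tfam cKO lower. Low values in Tfam cKO 1 were not limited to these genes. The inhibitor gene Stfa1 was at 7.33, 3.82, 1.57 and 9.34 FPKM in the same order, and Stfa3 at 26.6, 26.6, 13.0 and 24.2 FPKM. Cst3, Cst6, Cstb, Serpina3g and Serpinb6a were not lowest there. Of the keratinocyte markers, only Krt1 and Krt10 were lowest there, at 143 and 232 FPKM. The inhibitor list includes Ctla2a, Ctla2b and Cst7, and how far its median rests on T cell RNA was not tested. Among the 8 tested cathepsins, Tfam cKO 1 was the lowest library for none.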
